A study of Mus musculus with 2 samples.

Results

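The ATP-binding cassette (ABC) family was described across all its subfamilies in primary mouse neonatal ventricular cardiomyocytes (mNVCM). Members were the genes whose current or older symbol reads Abc, then a letter from a to g, then a digit, at probe sets that the array's annotation gives to exactly 1 gene. This gave 48 genes with 99 probe sets, of 18193 genes and 34945 probe sets with 1 gene. Of the 48, 3 were found through an older symbol only, namely *Tap1*, *Tap2* and *Cftr*. The symbol rule also caught *Ipo8*, which codes for importin 8 and carries an ABC name only among its older symbols, so it was kept out of the family. *Abca15*, *Abca17* and *Abcb5* were not analysed here. The 8 drug pumps *Abcb1a*, *Abcb1b*, *Abcc1* to *Abcc5* and *Abcg2* were set against the other 40 genes.

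ABC proteins bind and hydrolyse ATP in cassette domains, and most of them use this energy to carry a substrate across a membrane. P-glycoprotein, the multidrug resistance-associated proteins of subfamily C and the breast cancer resistance protein pump drugs out of cells, and doxorubicin (Dox) is a well-known substrate of P-glycoprotein. Humans make P-glycoprotein from a single gene, and mice from the pair *Abcb1a* and *Abcb1b*. Other members export cholesterol, load antigenic peptides, import fatty acids into peroxisomes or, in the heart, sense the energy state of the cell as the regulatory subunits of ATP-sensitive potassium (KATP) channels.

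Gene expression was measured with 2 Affymetrix arrays, 1 per condition. The study asked which genes respond when medium conditioned by stem cells from human amniotic fluid (hAFS-CM) is given before Dox, and whether it alters how much drug the cells keep. Cells of both groups came from hearts of C57BL6/J mice 2 days after birth, spent 1 h in medium with 0.5% serum and received 1 μM Dox. The Dox group had no pre-incubation, and the hAFS-CM + Dox group was first incubated for 3 h with hAFS-CM, which the methods describe as collected under hypoxia from stem cells of pooled donors. The labels of the arrays give 6 h of Dox for hAFS-CM + Dox and 21 h for Dox, whereas the methods give the same hours for both, so pre-incubation and length of Dox exposure cannot be told apart by the labels. No group without Dox was analysed here.

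Neither a standard error nor a test can be had from 1 array per condition, and every value describes these 2 arrays. Values are log2 expression after RMA, and a log2 ratio is hAFS-CM + Dox minus Dox at the brightest probe set of a gene, that with the highest mean over both arrays. As a yardstick, the spread of log2 ratios among probe sets that report on 1 gene was pooled over 5166 genes with several probe sets at or above 5.10, the median of all values, and came to 0.20 (called the probe set SD from here on). It holds no variation between cultures. Over all 9010 genes with several probe sets, dim ones included, the same spread was 0.22. Log2 ratios between 0.20 and 0.22 pass only the smaller of these values. All 9 cardiomyocyte markers lay above that median (mean log2 expression 13.22 with hAFS-CM + Dox and 13.43 with Dox), but so did the 7 markers of fibroblasts, the 7 of endothelium, 6 of 7 of pericytes and smooth muscle, and 7 of 8 of macrophages and leukocytes on at least 1 array. Markers of each of these lists thus reached the median, which is not a detection call and does not establish that each cell type was present. In the pericyte and smooth muscle list, *Myh11* was the marker below it (4.97 with hAFS-CM + Dox and 4.89 with Dox). Fewer cells of a type and less RNA per cell cannot be told apart.

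No ABC gene reached the 2-fold difference that the methods use as threshold. The count was 0 of 48 in each direction, where 0.506% of all genes were higher and 0.214% lower by 2-fold or more with hAFS-CM + Dox. At 1.5-fold, 2 members were higher, both of them drug pumps, and none was lower (2.32% and 1.52% of all genes). Beyond the probe set SD, 14 members were higher and 6 lower, or 29.2% and 12.5% of the family, against 18.5% and 16.3% of all genes. The family's log2 ratios ran from -0.48 to 0.71 with a median of 0.055, and the median over all genes was 0.0058. The median of all values was reached by 32 of the 48 genes on at least 1 array, while 8 lay below the 25th percentile (3.80) on both arrays, where signal and background could not be separated.

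**Figure D1:**
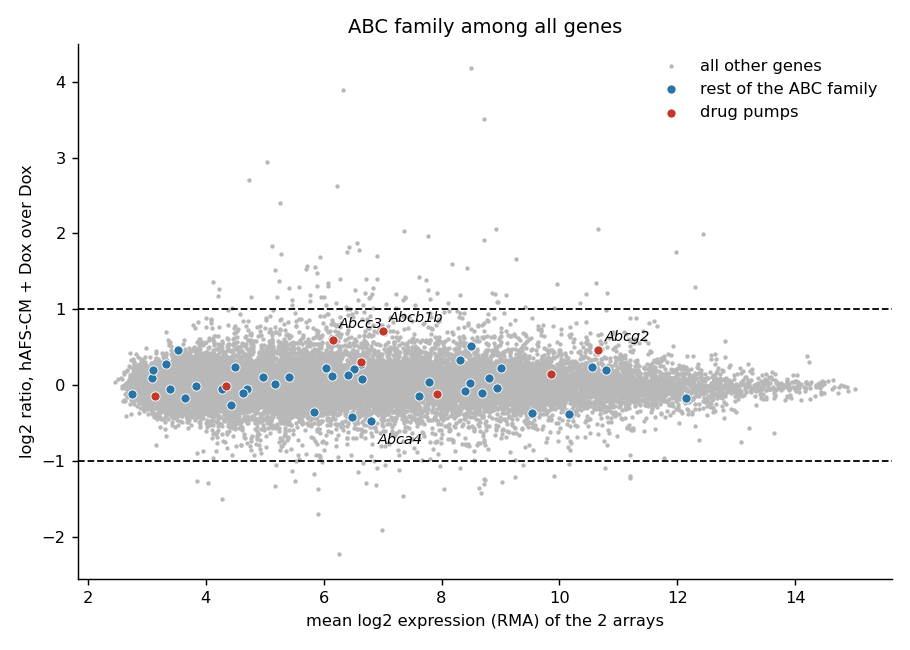
Log2 ratio (hAFS-CM + Dox over Dox) against mean log2 expression of the 2 arrays for all 18193 genes, with the 8 drug pumps in red, the other 40 ABC genes in blue and dashed lines at 2-fold. Every ABC gene lies between the dashed lines, with *Abcb1b* highest at 0.71 and *Abca4* lowest at -0.48.

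*Abcb1b* had the highest log2 ratio of the family. It codes for one of the mouse P-glycoproteins, which extrude hydrophobic drugs including Dox. Its log2 expression was 7.36 with hAFS-CM + Dox and 6.65 with Dox, a log2 ratio of 0.71 or 1.64-fold, which ranked 250 from the top of all genes. Its other probe set, with low values of 3.89 and 3.67, had a log2 ratio of 0.22. Both probe sets were thus higher with hAFS-CM + Dox, and their mean log2 ratio was 0.47. The dim probe set lay below the 25th percentile (3.80) on the Dox array, so it lends little weight to the direction.

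*Abcb1a*, its paralog, did not show this difference at its brightest probe set. There the log2 expression was 4.34 with hAFS-CM + Dox and 4.36 with Dox (log2 ratio -0.017). The other probe set read 3.31 and 2.96 (log2 ratio 0.34), below the 25th percentile on both arrays. Neither probe set of *Abcb1a* reached the median of all values. *Abcb4*, next to them on chromosome 5, codes for the phospholipid floppase of bile and read 6.21 against 6.09 for Dox (log2 ratio 0.12). The 3 genes lie side by side with no other protein-coding gene between them, and only *Abcb1b* differed by more than the probe set SD at the brightest probe set. Whether probes for one P-glycoprotein gene also bind transcripts of the other was not tested.

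The sequences before the start sites of this cluster are shown because these paralogs lie side by side and gave unlike values. Each run holds the 250 bases that end just before the start given by RefSeq on GRCm38.p6, 5′ to 3′ on the plus strand, at chr5:8566841-8567090 for *Abcb1a*, chr5:8797897-8798146 for *Abcb1b* and chr5:8893471-8893720 for *Abcb4*. Capitals mark matches, on either strand, to the GC box GGGCGG, the CCAAT box CCAAT, the AP-1 site TGANTCA, the antioxidant response element core TGACNNNGC, the TATA box TATAAA or an NF-κB site.
Abcb1a: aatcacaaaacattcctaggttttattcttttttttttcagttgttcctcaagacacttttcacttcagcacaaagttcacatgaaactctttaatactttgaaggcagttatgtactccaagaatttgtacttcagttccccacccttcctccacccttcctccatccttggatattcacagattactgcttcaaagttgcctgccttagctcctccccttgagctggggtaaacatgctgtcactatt
Abcb1b: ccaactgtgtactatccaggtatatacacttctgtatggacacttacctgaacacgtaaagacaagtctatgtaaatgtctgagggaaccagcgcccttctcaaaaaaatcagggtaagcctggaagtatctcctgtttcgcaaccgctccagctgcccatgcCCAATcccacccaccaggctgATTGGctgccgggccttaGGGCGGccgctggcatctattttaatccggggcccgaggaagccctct
Abcb4: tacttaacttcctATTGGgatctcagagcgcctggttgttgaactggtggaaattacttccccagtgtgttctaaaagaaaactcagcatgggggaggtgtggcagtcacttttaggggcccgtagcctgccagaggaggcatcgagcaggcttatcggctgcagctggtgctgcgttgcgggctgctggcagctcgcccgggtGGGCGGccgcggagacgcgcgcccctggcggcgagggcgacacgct
The *Abcb1b* window held CCAAT boxes whose first bases lie 87 and 66 bases before the start and a GC box at 48. *Abcb4* held a CCAAT box at 237 and a GC box at 46, and *Abcb1a* held none of these letters in this window. Which start these cells used for *Abcb1a* is not known here, so this window may not be the promoter in use. A match is a description of the letters and not of a factor's binding.

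*Abcc3*, *Abcg2* and *Abcc4* were the other pumps beyond the probe set SD, all higher with hAFS-CM + Dox. *Abcc3* codes for an exporter of bile salts and glucuronide conjugates and read 6.46 against 5.86 for Dox, a log2 ratio of 0.59 or 1.51-fold. *Abcg2*, the breast cancer resistance protein, which exports urate, porphyrins and several drugs, read 10.89 against 10.43, a log2 ratio of 0.46 or 1.38-fold. *Abcc4* codes for an exporter of cyclic nucleotides and prostaglandins and read 6.79 against 6.48, a log2 ratio of 0.31 or 1.24-fold. Each of these genes had only 1 probe set, so no other probe set bears on their values. Of all genes, 2.26%, 4.28% and 9.79% had a log2 ratio at least as high as *Abcc3*, *Abcg2* and *Abcc4*, and 1.37% one at least as high as *Abcb1b*.

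The remaining pumps stayed within the probe set SD. *Abcc1*, an exporter of glutathione conjugates that also confers resistance to anthracyclines, read 9.92 against 9.78 for Dox (log2 ratio 0.14) and 7.07 against 7.04 at its other probe set (0.032). *Abcc2*, the canalicular exporter of bilirubin conjugates, read 3.07 against 3.21 (-0.14), below the 25th percentile on both arrays. *Abcc5*, which exports cyclic nucleotides and heme, had 10 probe sets. At the brightest it read 7.86 against 7.98 (-0.11), and the 6 brightest ranged from -0.11 to 0.048. The lowest log2 ratios were those of the next 2 in brightness, -0.40 (5.04 against 5.44) and -0.65 (4.27 against 4.92), and the dimmest 2 had 0.12 and 0.080. Different probe sets of *Abcc5* thus gave different answers, mostly near 0.

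**Figure D2:**
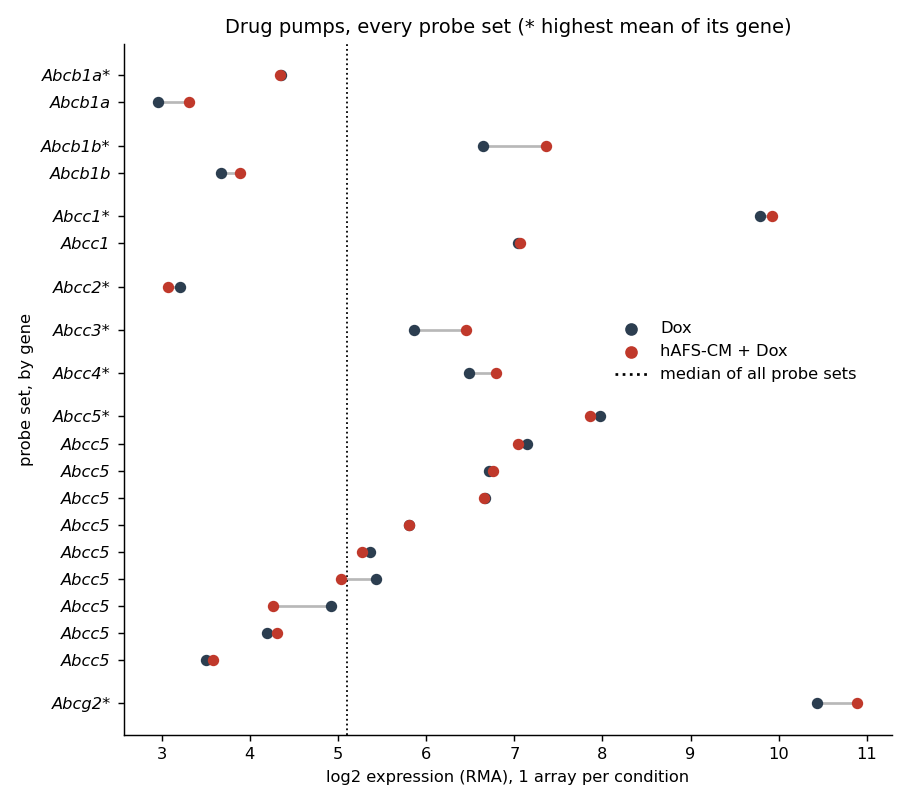
Log2 expression (RMA) of the 8 drug pumps at each of their 20 probe sets on the Dox array (dark) and the hAFS-CM + Dox array (red), 1 array per condition, with the median of all probe sets dotted. Red exceeds dark at the brighter *Abcb1b* probe set and for *Abcc3*, *Abcc4* and *Abcg2*, while the points of *Abcc1* and of most *Abcc5* probe sets nearly coincide.

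Set against the rest of the family, the pumps had the higher median. Of the 8 pumps, 4 were higher and 0 lower beyond the probe set SD (median log2 ratio 0.22, range -0.14 to 0.71). Of the other 40 genes, 10 were higher and 6 lower (median 0.031, range -0.48 to 0.52). Among genes at or above the median of all values on at least 1 array, 4 of 6 pumps and 7 of 26 others were higher and 0 and 5 lower, where 20% of all such genes were higher and 17.1% lower, and the medians were 0.39 and 0.055. The difference between pumps and the rest rests on 4 genes and could not be tested with these arrays. Over probe sets instead of genes, the medians were 0.040 for the 20 probe sets of the pumps, 10 of which belong to *Abcc5*, and 0.044 for the other 79.

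Markers of other cell types are given beside the pumps, since endothelium is known for *Abcb1a* and *Abcg2* and macrophages express several subfamily C pumps. The 7 endothelial markers had a mean log2 expression of 7.17 with hAFS-CM + Dox and 7.14 with Dox, with none higher and 1 lower beyond the probe set SD (*Tek*, -0.22). The 8 markers of macrophages and leukocytes had 7.61 and 7.36, with 5 higher and 1 lower, against 18.5% and 16.3% of all genes. They ran from *Itgam* with a log2 ratio of -0.58 to *Cd14* with 0.80, and *Lyz2*, the lysozyme of these cells, had -0.11. *Ptprc* (0.48) and *Csf1r* (0.33) had negative log2 ratios at another probe set (-0.088 and -0.14). *Adgre1*, *Cd14* and *Fcgr3* were higher too and had 1 probe set each. No marker of either list lay below the 25th percentile on both arrays. The part of cell composition in the pump values was not tested.

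The start sites of *Abcc4* and *Abcg2* are shown next, as pumps that were higher together with *Abcb1b*, and that of *Abcc9* as a member with negative log2 ratios at all of its probe sets. They were read in the same way at chr14:118706220-118706469 on the minus strand for *Abcc4*, chr6:58640296-58640545 on the plus strand for *Abcg2* and chr6:142702275-142702524 on the minus strand for *Abcc9*. RefSeq gives *Abcc4* and *Abcg2* further start sites, and which one these cells used is not known here.
Abcc4: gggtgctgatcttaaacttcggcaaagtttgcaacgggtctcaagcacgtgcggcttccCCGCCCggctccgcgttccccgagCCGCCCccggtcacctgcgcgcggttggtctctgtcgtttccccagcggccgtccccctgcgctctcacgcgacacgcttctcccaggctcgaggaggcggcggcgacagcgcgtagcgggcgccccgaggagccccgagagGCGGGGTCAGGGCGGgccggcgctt
Abcg2: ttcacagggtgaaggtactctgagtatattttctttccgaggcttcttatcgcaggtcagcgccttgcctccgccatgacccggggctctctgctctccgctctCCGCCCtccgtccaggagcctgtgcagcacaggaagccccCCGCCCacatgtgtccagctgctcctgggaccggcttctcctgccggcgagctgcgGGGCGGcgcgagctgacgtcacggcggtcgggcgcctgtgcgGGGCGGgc
Abcc9: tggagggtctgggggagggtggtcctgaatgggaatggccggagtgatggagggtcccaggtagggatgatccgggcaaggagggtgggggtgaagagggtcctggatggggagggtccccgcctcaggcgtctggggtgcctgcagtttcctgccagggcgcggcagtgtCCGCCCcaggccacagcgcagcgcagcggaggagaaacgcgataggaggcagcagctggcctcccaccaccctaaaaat
*Abcc4* held GC boxes at 191, 167 and 16 bases before the start and an antioxidant response element core at 25, directly before the last of them. *Abcg2* held GC boxes at 146, 106, 50 and 8, and *Abcc9* held 1 at 79. Over all 44 such windows of 37 family genes, 50% held a GC box and 29.5% a CCAAT box, against 32.7% and 33.8% of 32851 mouse start sites. The core of the antioxidant response element was in 9.09% (10.2% of all), a TATA box in 11.4% (12.4%) and an NF-κB site in 6.82% (3.9%), and an AP-1 site in 0 of 44 (6.75%). *Abcf2* has overlapping windows that hold the same NF-κB site, so the 3 windows behind that share are not 3 separate sites. The 9 windows of 6 pumps held an antioxidant response element core in 3 cases, at *Abcc2* and at both start sites of *Abcc4*, and an NF-κB site in 1 case, at another start site of *Abcg2*.

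The sulfonylurea receptors had negative log2 ratios at all of their probe sets. They are the regulatory subunits of KATP channels, which open when ATP falls. *Abcc9* (SUR2), the form of ventricular muscle and of vessel walls, read 12.05 against 12.22 for Dox at its brightest probe set (log2 ratio -0.17), within the probe set SD. Its other probe sets read 9.17 against 9.81 (-0.64) and 8.66 against 9.10 (-0.44). *Abcc8* (SUR1) read 6.26 against 6.68 (-0.42) and 5.65 against 6.33 (-0.69). All 5 probe sets of the 2 genes were lower with hAFS-CM + Dox. Outside the pumps, only *Abcc8* and *Abcc9* had a probe set past 1.5-fold. Of the 79 probe sets outside the pumps, 0 were higher and 2 lower by as much, against 2.03% and 1.89% of all probe sets. This count is close to the share over all probe sets. *Cftr*, a chloride channel, read 3.20 against 3.01, below the 25th percentile on both arrays.

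The pore subunits of the same channels stayed within the probe set SD. *Kcnj11* read 9.36 against 9.26 for Dox (log2 ratio 0.094, -0.18 at its other probe set) and *Kcnj8* read 4.91 against 5.00 (-0.087). All 9 cardiomyocyte markers were below 0, as were 8869 of all 18193 genes, and their median log2 ratio was -0.17. Beyond the probe set SD, 4 of the markers were lower (16.3% of all genes), led by *Pln* (phospholamban) with -0.57. The other 5 stayed within it. The 7 markers of pericytes and smooth muscle, where *Abcc9* is also known to be expressed, had means of 9.15 with hAFS-CM + Dox and 8.96 with Dox, with 2 higher and none lower (18.5% and 16.3% of all genes). The 2 were *Cspg4* (0.63, and 0.35 at its other probe set) and *Pdgfrb* (0.31, and -0.028 at its other). *Rgs5* had 0.087, with a range from -0.35 to 0.20 over its probe sets. The part of these shifts in the values of *Abcc8* and *Abcc9* was not tested.

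The sterol exporters went both ways. Of 6 genes, 2 were higher and 1 lower beyond the probe set SD (18.5% and 16.3% of all genes), with a median log2 ratio of 0.055. *Abca1*, which loads cholesterol onto apolipoprotein A-I, read 9.34 against 9.71 for Dox (-0.36) at its brightest probe set, with 0.13 (5.16 against 5.03) and -0.099 (3.82 against 3.91) at the others. *Abcg1*, which exports cholesterol to mature lipoproteins, read 8.92 against 8.95 (-0.035), and 5.33 against 5.09 (0.25) at its dimmer probe set. *Abca7*, a phospholipid exporter, had 0.035 and *Abcg4*, a sterol exporter of the nervous system, 0.076. *Abcg5* and *Abcg8*, which together form the sterol exporter of gut and liver and are direct neighbours on chromosome 17, had 0.46 and 0.22, but *Abcg5* read only 3.76 and 3.29. Of the macrophage and leukocyte markers given above, 5 of 8 were higher and 1 lower beyond the probe set SD, and their part in these values was not tested.

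Genes that act with the sterol exporters went both ways too. Of 7 measured genes of cholesterol handling, 1 was higher and 3 lower beyond the probe set SD (median log2 ratio -0.096). *Scarb1*, the receptor for high-density lipoprotein, had 0.49, with up to 0.67 at another probe set. *Npc1*, which releases cholesterol from lysosomes, had -0.42, *Srebf1*, a transcription factor of lipid synthesis, -0.36, and *Mylip*, which marks lipoprotein receptors for degradation, -0.26. Of all genes, 18.5% were higher and 16.3% lower by as much.

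The other lipid transporters of subfamily A were mostly dim. Of 12 measured genes, 4 reached the median of all values on at least 1 array, 2 were higher and 2 lower beyond the probe set SD (median log2 ratio -0.049), shares close to the 18.5% and 16.3% of all genes. *Abca4*, the retinoid flippase of photoreceptors, read 6.57 against 7.05 for Dox (-0.48, 1.39-fold lower), the lowest log2 ratio of the family. *Abca2*, a lipid transporter of endosomes and of nerve tissue, read 5.67 against 6.02 (-0.35). *Abca5*, of lysosomes and late endosomes, read 8.48 against 8.15 (0.33), but -0.13 at a dim probe set (3.52 against 3.64). *Abca3*, the surfactant lipid transporter of lung, had -0.083. *Abca13* had 0.28 at values below the 25th percentile.

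Next to *Abca5* on chromosome 11, *Abca6*, *Abca9*, *Abca8a* and *Abca8b* follow without another protein-coding gene between. Their log2 ratios were -0.048, -0.050, -0.0086 and -0.058, all with values below the median. The remaining genes of this group, *Abca12*, *Abca14* and *Abca16*, had 0.10, 0.096 and -0.12 below that median too. Only *Abca5* of the cluster differed by more than the probe set SD.

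Among the peptide transporters, 2 of 3 genes were higher beyond the probe set SD, where 18.5% of all genes were. *Tap1* and *Tap2* form the transporter that brings peptides to MHC class I, and *Abcb9* carries peptides into lysosomes. *Tap1* read 8.76 against 8.24 for Dox (log2 ratio 0.52 or 1.43-fold), the highest value outside the pumps among genes at or above the median. Its next probe set read 5.15 against 5.08 (0.070), and the dimmest 2 had -0.24 and 0.076 below the 25th percentile. *Abcb9* read 6.77 against 6.50 (0.27), with -0.071 and 0.11 at dimmer probe sets, and *Tap2* read 6.48 against 6.35 (0.13). *Tap2* stayed within the probe set SD.

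Partners of the peptide transporter are given next. Of 9 genes of peptide loading, 4 were higher and 0 lower beyond the probe set SD (18.5% and 16.3% of all genes) and 8 lay above 0 (51.2% of all genes), with a median log2 ratio of 0.16. *Erap1*, which trims peptides, had 0.68 (-0.093 at its other probe set). *Psmb9* and *Psmb8*, subunits of the immunoproteasome that cuts them, had 0.36 and 0.32 (-0.15 at the other probe set of *Psmb8*). *Psmb10*, the remaining gene beyond the probe set SD, had 0.21 at its only probe set. *Tapbp*, tapasin, had 0.16, and *B2m*, the light chain of MHC class I, had -0.11. Of the 9, *B2m* was the one below 0. Of the markers of macrophages and leukocytes, 5 of 8 were also higher and 1 lower (18.5% and 16.3% of all genes). Their median log2 ratio was 0.33. These marker values are set beside those of *Tap1*, *Abcb9* and these partners, and their part in the result was not tested.

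Mitochondrial members differed little. *Abcb10*, needed for heme synthesis, read 8.50 against 8.47 for Dox (log2 ratio 0.027), with -0.15 and -0.23 at its dimmer probe sets. *Abcb6*, linked to porphyrin transport, read 8.64 against 8.74 (-0.11), and *Abcb8*, linked to iron export from mitochondria, 7.54 against 7.69 (-0.15). Of the 3 measured genes, none passed the probe set SD at the probe set used.

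In subfamily D, whose members import fatty acyl-CoA into peroxisomes or handle cobalamin in lysosomes, 2 of 3 measured genes were lower and 1 higher beyond the probe set SD (16.3% and 18.5% of all genes). *Abcd3* (PMP70), the abundant peroxisomal half-transporter, read 9.97 against 10.35 for Dox (log2 ratio -0.38, 1.30-fold lower), with 0.18 at a probe set below the 25th percentile. *Abcd2* read 4.30 against 4.56 (-0.26), with -0.17 to 0.18 at its other 3 probe sets, all dim. *Abcd4*, the lysosomal member, read 6.62 against 6.41 (0.21) and 4.76 against 4.98 (-0.22) at the dimmer probe set. None of these genes had the same sign at every probe set.

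*Abce1* and the *Abcf* genes have cassette domains but no membrane domain and act on ribosomes. All 4 had positive log2 ratios at the brightest probe set (51.2% of all genes did), and 2 were higher beyond the probe set SD (18.5% of all genes), with a median of 0.21. *Abce1*, which splits ribosomes for recycling, read 10.90 against 10.70 for Dox (0.20), with 0.28 and 0.15 at the others. *Abcf1*, which acts in translation initiation, read 10.66 against 10.43 (0.24), and its 6 probe sets ranged from 0.042 to 0.24. *Abcf3* had 0.088, with up to 0.16. *Abcf2* read 9.13 against 8.90 (0.22) but 5.21 against 5.79 (-0.58) at its other probe set, the widest disagreement among members with several probe sets at or above the median.

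The last members were close to 0 or dim. Of the bile transporters, *Abcb4* is given above and *Abcb11*, the bile salt export pump, had a log2 ratio of 0.23 at 4.61 against 4.38 for Dox, beyond the probe set SD but below the median of all values. *Abcc10* (0.11), *Abcc12* (0.017), *Abcg3* (-0.10) and *Abcc6* (-0.16) all stayed within the probe set SD.

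**Figure D3:**
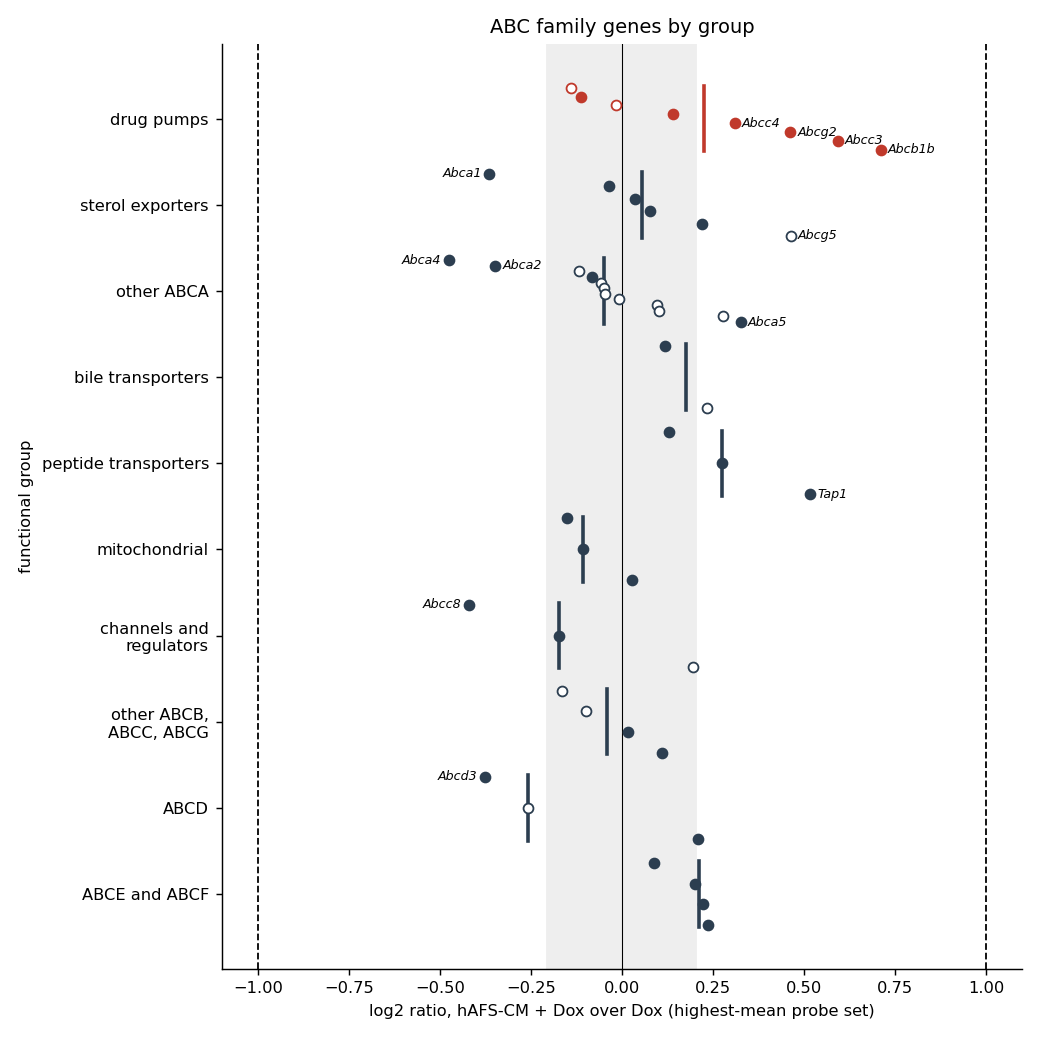
Log2 ratio (hAFS-CM + Dox over Dox) of the 48 ABC genes at its brightest probe set, by functional group. Points are genes, filled where at least 1 array reached the median of all values, bars are group medians, the grey band spans the probe set SD (0.20) on either side of 0 and dashed lines mark 2-fold. The medians of the drug pumps (0.22), the peptide transporters (0.27) and the ABCE and ABCF genes (0.21) lie above the band and that of subfamily D (-0.26) below it.

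The signs by subfamily are a description of few genes each. Subfamily A had 5 of 14 genes above 0 (median log2 ratio -0.049), B 7 of 10 (0.12), C 6 of 11 (0.017), D 1 of 3 (-0.26), F 3 of 3 (0.22) and G 4 of 6 (0.15), against 51.2% of all genes. *Tap1* and *Tap2* are counted in B and *Cftr* in C. In 13 genes 2 or more probe sets had a mean at or above the median, and in 9 of these all such probe sets lay on the same side of 0. In 6 of the 13 their log2 ratios ranged over more than the probe set SD, so the size of a difference depends on the probe set even where its sign does not.

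**Figure D4:**
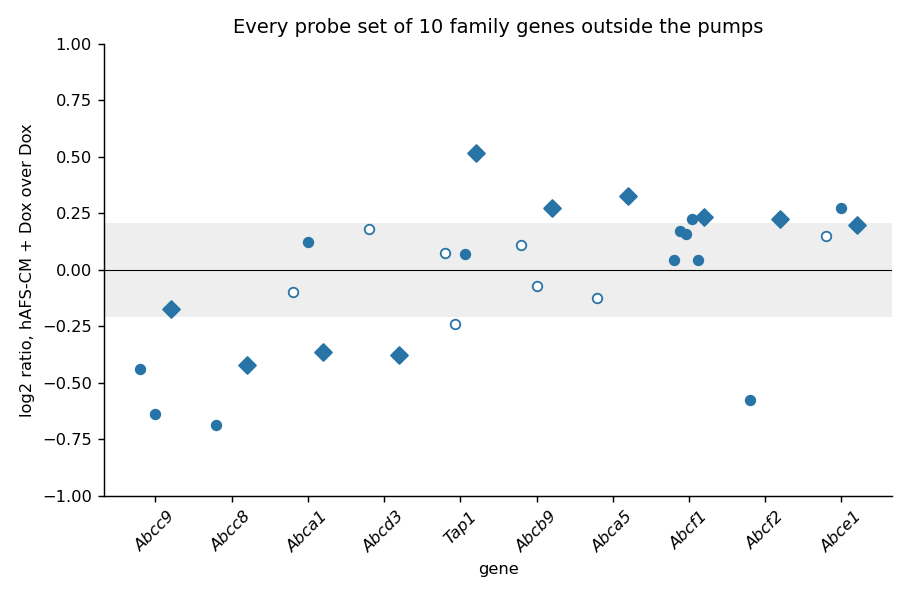
Log2 ratio (hAFS-CM + Dox over Dox) at every probe set of 10 ABC genes outside the pumps. Diamonds are the brightest probe sets of their gene, circles the others, open where neither array reached the median of all values, and the grey band spans the probe set SD (0.20). All points of *Abcc8* and *Abcc9* lie below 0 and all points of *Abcf1* and *Abce1* above it, while *Abcf2* has a point at 0.22 and another at -0.58.

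Transcription factors known to act on ABC genes differed little. Of 11 measured, 2 were higher and 2 lower beyond the probe set SD (median log2 ratio 0.012), shares close to the 18.5% and 16.3% of all genes. *Rela*, the p65 subunit of NF-κB, had 0.23 and *Hif1a*, the hypoxia factor, 0.22 (-0.16 at its lowest probe set). *Nr1h4*, the bile acid receptor, had -0.22 and *Nr1h3*, a sterol receptor that drives *Abca1* and *Abcg1*, -0.21. *Hif1a* (0.215), *Nr1h4* (-0.217) and *Nr1h3* (-0.210) fell short of the spread over all genes with several probe sets (0.225). *Nr1h4* read only 3.82 against 4.03 for Dox, close to the 25th percentile (3.80). *Nr1h2*, *Trp53* and *Nfkb1* were not analysed here. *Nfe2l2*, the regulator of antioxidant genes and of several subfamily C pumps, had 0.11. Transcript levels of these factors say nothing of their activity.

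Other carriers of drugs included 2 genes higher and 1 lower beyond that SD among 6 measured (median log2 ratio 0.071), where 18.5% and 16.3% of all genes were. *Mvp*, the major vault protein first found in drug-resistant cells, read 9.29 against 8.72 for Dox (0.57, and 0.68 at its other probe set). *Slc22a16*, a carnitine carrier that also takes up Dox, read 5.06 against 4.73 (0.33) and *Slc22a4*, an organic cation carrier, 4.16 against 4.41 (-0.26). *Slc22a5*, the carnitine importer of the heart, had 0.075. *Mvp* and the pumps *Abcc3* and *Abcg2* had log2 ratios of similar size.

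**Figure D5:**
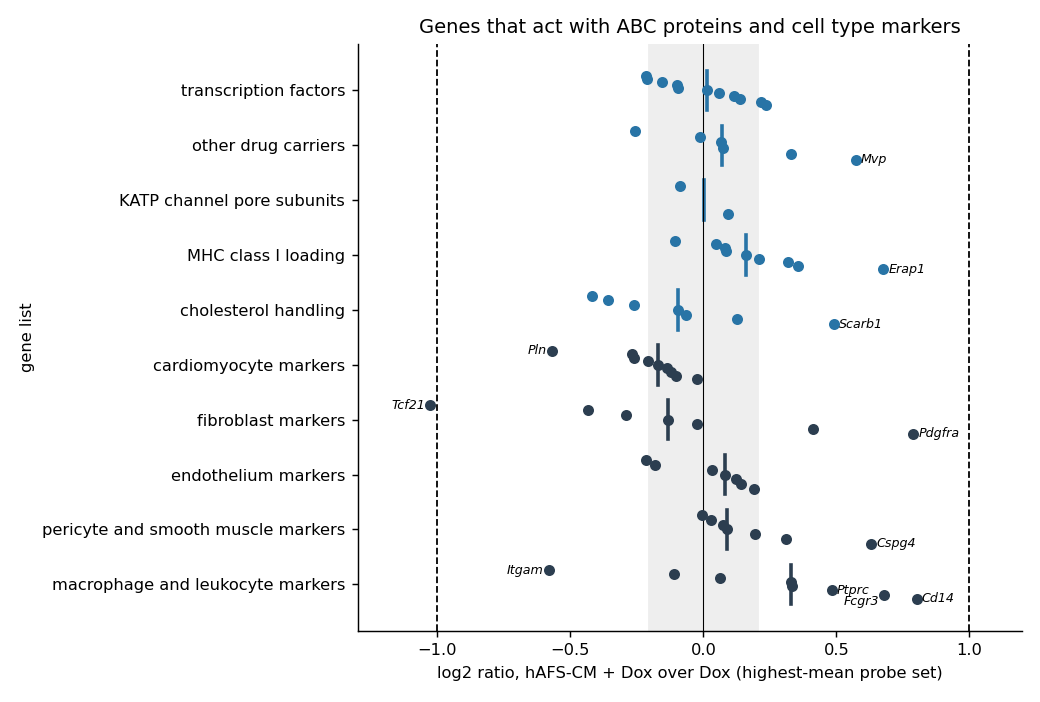
Log2 ratio (hAFS-CM + Dox over Dox) at the brightest probe set of each gene, for lists of genes that act with ABC proteins (blue) and for cell type markers (dark), with bars at the medians, the probe set SD in grey and dashed lines at 2-fold. The median lies highest for the markers of macrophages and leukocytes (0.33) and lowest for those of cardiomyocytes (-0.17). Only *Tcf21*, a fibroblast marker, passes 2-fold (-1.03), and its other probe set, not drawn, had a log2 ratio of 0.18.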

How the data were processed

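Total RNA of mNVCM was hybridised to 2 Affymetrix mouse arrays, 1 per condition. By RMA with quantile normalization the authors obtained a log2 value for each probe set, and these deposited log2 values were not altered. The submitters' processing notes name RMA too, while software, version and probe set definition were not given in the sources used here. No label states the log base, and the range from 2.37 to 15.05 was read as log2. RMA shrinks differences of dim probe sets, so low values bound a difference poorly.

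Symbols came from the platform annotation and were updated by Entrez ID with RefSeq genes of GRCm38.p6, which matched 34741 of 34945 probe sets with 1 gene. The 64 control probe sets, 932 with several genes and 9211 with none were left out. The arrays name no build, so no probe set was placed on the genome. Start sites and their coordinates came from the RefSeq table of GRCm38.p6, which held 37 of the 48 genes, and only the 250 bases before each start were searched, on either strand.

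Each gene was represented by its probe set of highest mean. With 1 array per group no test was possible, so precision is limited by the number of arrays. Members, lists and the naming rule were chosen with earlier results of these data known. All pumps were named at every probe set, together with other members with a probe set past 1.5-fold, the 10 largest of those reaching the median, and up to 4 genes of each list. Further members and list genes were named after their values were seen. Counting and the probe set SD were tested on simulated data. The alternatives tried were other thresholds (1.5-fold, 3-fold), filters on dim genes, centring, lowess correction (span 0.3), other rules for probe sets, and membership by current symbol. Calculations ran in Python 3.11.15 with pandas 2.3.3, numpy 2.4.6 and statsmodels 0.14.6, and plots in matplotlib 3.10.9.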

Additional observations from a re-analysis of the deposited data

How the results depend on the processing

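No ABC gene passed 2-fold in either direction under any alternative tried, which leaves none to pass 3-fold. At a threshold of 1.5-fold, 2 genes were higher, *Abcb1b* and *Abcc3*, and none was lower. With the lowess correction *Abcc3* had a log2 ratio of 0.58, just under that threshold. The median log2 ratio ranged from 0.21 to 0.39 for the pumps, from -0.022 to 0.055 for the rest of the family and from 0.027 to 0.099 for all members over the alternatives, among which keeping *Ipo8* was chosen after seeing the data. Of 101 values recomputed, 97 moved by less than the probe set SD or kept their count. Many of them could not move, so this count is no measure of robustness. Filters on dim genes leave the log2 ratio of a kept gene as it is. Rules for probe sets cannot change a gene with 1 probe set, such as *Abcc3*, *Abcc4* and *Abcg2*. The mean of all probe sets gave *Abcb1b* a log2 ratio of 0.47 in place of 0.71. Taking the probe set of largest change gave *Abcb1a* 0.34 and *Abcc5* -0.65. That probe set of *Abcb1a* lay below the 25th percentile on both arrays and supports no direction, and the size for *Abcc5* depends on the probe set. The cause was not tested. With probe sets of less specific types left out, 43 family genes remained. No paired analysis was possible because each group has 1 array, and for the same reason no array could be left out. Signal limits 8 members, which lay below the 25th percentile on both arrays.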
